A study of Arabidopsis thaliana with 4 samples.

Results

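The regions described here are differentially methylated regions (DMRs) that lie in transposons of a family with HELITRON in its name. They were taken from 4 tables, each of which compared whole-genome bisulfite sequencing of 2 Arabidopsis Col-0 leaf libraries. A DMR was counted once per chromosome, start, end and cytosine context in each table, which gave 1397 of the 24806 entries of the 4 tables and 1084 of 20095 distinct regions. No methylation value entered this choice beyond the authors' own calling of the DMRs.

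Plants of every group were wild type and were acclimated for 22 days to high or low light, given either as a square pattern with constant intensity through the day or as a fluctuating pattern. The number of days is that of the deposited description, and the methods of the study give a slightly shorter time. The groups were square high light (SQH), square low light (SQL), fluctuating high light (FLH) and fluctuating low light (FLL). Each regime was represented by 1 library, for which 6 plants had been pooled. There is thus no replicate check of any difference below, and every value compares 2 libraries rather than 2 growth conditions. The tables hold called DMRs only, so unchanged transposons of the same families are not seen in them.

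Helitrons are DNA transposons that are thought to move by rolling-circle replication, and autonomous copies encode a Rep/helicase protein. Many more copies are short, carry no such protein and depend on the autonomous ones. In Arabidopsis, methylation in the CpG context is copied by MET1 and in the CpHpG context by CMT3 (H is A, C or T), while CpHpH methylation depends on CMT2 and on RNA-directed DNA methylation through DRM2, the latter typically at short transposons and transposon edges near genes. Transposons in pericentromeric heterochromatin usually carry all of these marks.

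To show what such a region looks like, the sequences of 5 of the 6 regions with the widest range of levels over all 4 libraries are given first, followed by those of 3 regions with the largest difference between SQH and SQL, 1 per context, where each library had 8 or more reads per cytosine. All are 150 bases of the top strand, 5′ to 3′, in TAIR10 coordinates, read from the RefSeq reference. Capitals mark the cytosines of the named context and their partners: a capital C is a cytosine of the top strand and a capital G stands opposite a cytosine of the bottom strand.
AT4TE24425 (HELITRONY3, CpG, chr4:5809901-5810050): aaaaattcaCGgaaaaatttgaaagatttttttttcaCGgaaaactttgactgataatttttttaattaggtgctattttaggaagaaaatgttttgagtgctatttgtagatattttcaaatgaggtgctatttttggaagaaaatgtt
AT3TE36645 (HELITRONY1D, CpG, chr3:8742551-8742700): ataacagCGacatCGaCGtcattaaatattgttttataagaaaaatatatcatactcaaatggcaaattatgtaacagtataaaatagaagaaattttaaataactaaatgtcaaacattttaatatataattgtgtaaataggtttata
AT3TE41565 (HELITRONY3, CpHpH, chr3:9988901-9989050): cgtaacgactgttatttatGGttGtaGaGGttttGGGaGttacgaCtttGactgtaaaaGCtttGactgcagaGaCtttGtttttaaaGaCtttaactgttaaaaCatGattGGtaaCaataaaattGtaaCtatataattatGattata
AT5TE73965 (HELITRONY1D, CpHpH, chr5:20527505-20527654): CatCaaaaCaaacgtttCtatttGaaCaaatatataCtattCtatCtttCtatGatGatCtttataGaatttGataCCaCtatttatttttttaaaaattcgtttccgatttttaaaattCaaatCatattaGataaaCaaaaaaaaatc
AT5TE32720 (HELITRONY1E, CpHpH, chr5:9042755-9042904): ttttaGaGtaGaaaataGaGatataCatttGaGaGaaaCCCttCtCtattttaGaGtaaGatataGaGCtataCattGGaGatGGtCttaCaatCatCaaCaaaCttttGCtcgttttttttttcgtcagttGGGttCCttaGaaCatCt
AT3TE51490 (HELITRONY1A, CpG, chr3:12473351-12473500): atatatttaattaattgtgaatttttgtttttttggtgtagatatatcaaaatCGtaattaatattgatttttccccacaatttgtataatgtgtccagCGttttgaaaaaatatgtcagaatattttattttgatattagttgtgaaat
AT2TE18840 (HELITRON4, CpHpG, chr2:4502051-4502200): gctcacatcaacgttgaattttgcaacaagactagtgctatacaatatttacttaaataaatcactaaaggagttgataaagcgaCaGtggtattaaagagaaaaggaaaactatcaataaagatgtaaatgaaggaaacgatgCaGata
AT4TE34075 (HELITRONY2, CpHpH, chr4:7774451-7774600): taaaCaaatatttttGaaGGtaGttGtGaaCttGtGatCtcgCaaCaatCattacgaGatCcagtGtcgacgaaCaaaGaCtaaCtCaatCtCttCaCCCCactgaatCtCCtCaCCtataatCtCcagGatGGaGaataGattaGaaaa

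The sequences are rich in A and T, and the number of cytosines behind a level differs widely with context. The CpG region of AT4TE24425 holds 4 CpG cytosines and that of AT3TE36645 holds 6, whereas the CpHpH region of AT4TE34075 holds 43. Over all 1084 distinct regions the median GC content was 28.7% (SD 6.45), beside 35.3% over all regions of the tables. The number of cytosines that the tables gave for a region equalled the number in the reference sequence for 1084 of 1084 regions.

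The regions came from 13 families and 641 transposon loci. HELITRONY3 was by far the most frequent, with 631 entries and 465 distinct regions in 249 loci, and it ranked 3 among the 307 family names of the tables. HELITRONY1D followed with 162 entries, HELITRONY1B with 95, HELITRON2 with 78, HELITRON1 with 76 and HELITRON4 with 69. HELITRONY1A and HELITRONY1E had 62 entries each, HELITRONY2 had 57, HELITRONY1C had 36, HELITRON5 had 30, HELITRON3 had 27 and HELITRONY3A had 12. The chromosomes carried 256, 211, 232, 152 and 233 distinct regions, from 1 to 5. Of the distinct regions, 1002 (92.4%) were a single 150 bp bin, and the longest spanned 1200 bp.

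The families fell into 2 kinds by the context and the place of their regions. The regions of HELITRON1 to HELITRON5 were mostly CpG and CpHpG, with 117, 85 and 47 of 249 in CpG, CpHpG and CpHpH. Those of the HELITRONY families were mostly CpHpH, with 163, 59 and 613 of 835. Among all distinct regions of the tables these numbers were 7077, 3532 and 9486 of 20095. Among single families, CpHpH took 12.9% of the regions of HELITRON1 and 7.14% of those of HELITRON5, whereas HELITRONY1A had 32 CpHpH regions of 43 and none in CpHpG. A window of 500 kb was called gene-poor where its number of protein-coding genes was below 0.5 times the median over windows, and 38 such windows made up 15.9% of the genome. They held 65.1% (Wilson 95% interval 59.0 to 70.7) of the HELITRON1 to HELITRON5 regions and 23.2% (20.5 to 26.2) of the HELITRONY regions. The intervals do not overlap, although they treat neighbouring regions as independent and cover counting error only.

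**Figure D1:**
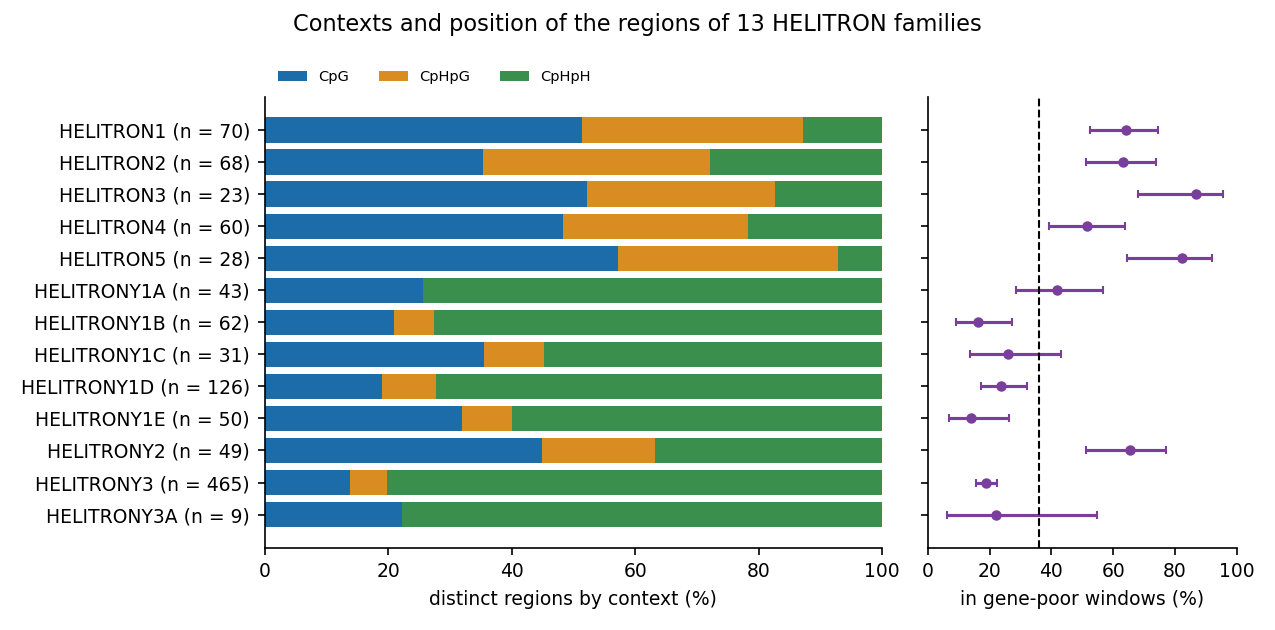
Contexts and position of the distinct regions of the 13 families: the left panel stacks the percentage of regions in CpG, CpHpG and CpHpH, and the right panel gives the percentage in gene-poor windows with Wilson 95% intervals. HELITRON1 to HELITRON5 show small CpHpH shares and 51.7 to 87.0% in gene-poor windows, and HELITRONY2 lies beside them on the right with 65.3%.

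HELITRONY2 was the clearest exception among the Y families. Of its 49 regions, 22 were CpG and 18 CpHpH, 65.3% (51.3 to 77.1) were in gene-poor windows and 38.8% had their midpoint in an annotated pseudogene. HELITRONY1A, with mostly CpHpH regions, had 41.9% (28.4 to 56.7) in gene-poor windows, beside 36.0% of all regions of the tables. Distance to genes followed the same division of families. The median distance to the nearest protein-coding gene was 4933 bp for HELITRON1 to HELITRON5 and 1026 bp for the HELITRONY families, and 20.1% and 49.0% of their regions lay within 1 kb of one. Over all regions of the tables the median was 1299 bp and 45.1% lay within 1 kb, near the HELITRONY values. The midpoint was in an annotated pseudogene for 52.2% of the HELITRON1 to HELITRON5 regions and for 4.55% of the HELITRONY regions, beside 24.2% of all regions. Such loci carry gene identifiers but are themselves parts of transposons in many cases.

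Over all 1084 regions, 57.7% were intergenic and 20.4% lay upstream of a protein-coding gene within 1 kb, beside 41.2% and 16.0% of all regions of the tables. Pseudogenes held 15.5%, introns 3.04%, UTRs 2.21% and coding exons 0.74%, beside 24.2, 5.97, 2.10 and 9.44% of all regions. Only 69.7% of all entries carry a transposon name, so part of these gaps is set by the choice of regions in transposons. Among CpHpH regions alone, the upstream share was 25.2%, beside 24.8% of all. The share in gene-poor windows, 32.8% (30.1 to 35.7), was below the 36.0% of all regions. The ATREP families, the other Helitron families of the annotation, had 13.2% (ATREP3), 19.3% (the families starting with ATREP10) and 18.5% (the remaining ATREP families) of their regions there.

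The tables listed 273 HELITRON regions for SQH against SQL (7.80% of the table), 327 for FLH against FLL (5.21%), 339 for SQH against FLH (5.17%) and 458 for SQL against FLL (5.40%). CpHpH made up 232, 202, 218 and 257 of them in this order, CpG made up 4, 93, 78 and 143, and CpHpG made up 37, 32, 43 and 58. The low CpG number for SQH against SQL goes with the construction of that table, in which no CpG region of any kind differed by less than 40.2 percentage points. In the other 3 tables the smallest CpG difference was 20 points, and in all 4 tables the smallest CpHpG and CpHpH differences were 20 and 10 points. Counts of CpG regions are therefore not comparable between that table and the others.

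A methylation level is given below as methylated reads over all reads, summed over the cytosines of the region. A gain is a region with a higher level in the second-named library and a loss is one with a lower level. Gains and losses occurred together in every context and comparison, so a pooled level over all regions mixes the 2 directions. Median depth in CpHpH regions was lowest for SQH, with 7.06 reads per cytosine beside 7.88 for SQL and 7.09 beside 8.96 for FLH. For FLH and FLL it was 8.74 and 8.73, and for SQL and FLL it was 7.88 and 8.71. The part of depth in the differences was not tested.

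Under the square pattern, low light went with lower CpHpH levels over the HELITRON regions, and under the fluctuating pattern with higher ones. For SQH against SQL, 99 of 232 CpHpH regions (42.7%, Wilson 95% interval 36.5 to 49.1) were gains, beside 34.6% of all CpHpH regions of the table, and the pooled level was 23.2% in SQH and 20.0% in SQL. For FLH against FLL, 128 of 202 (63.4%, 56.5 to 69.7) were gains, beside 65.5% of all, and the pooled level was 20.0% in FLH and 24.3% in FLL. The share of gains thus lay near that of the whole table in the second comparison. In the first, the interval excluded that of the table, but it treats regions from the same libraries as independent and covers counting error only. For SQH against SQL, the CpHpH share was 38.7% in regions where every 50-base stretch was unique in the genome and 46.9% in the others. A difference from the whole table was not tested. Within gains, levels ran from 13.6 to 26.5% and from 15.7 to 29.6% in the 2 comparisons, and within losses from 30.1 to 15.4% and from 27.6 to 14.6%. The split by direction and the 10-point minimum of the tables largely set these sizes. Among all CpHpH regions, gains ran from 14.9 to 28.6% and from 16.8 to 30.3%, and losses from 29.1 to 15.5% and from 30.1 to 16.6%.

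**Figure D2:**
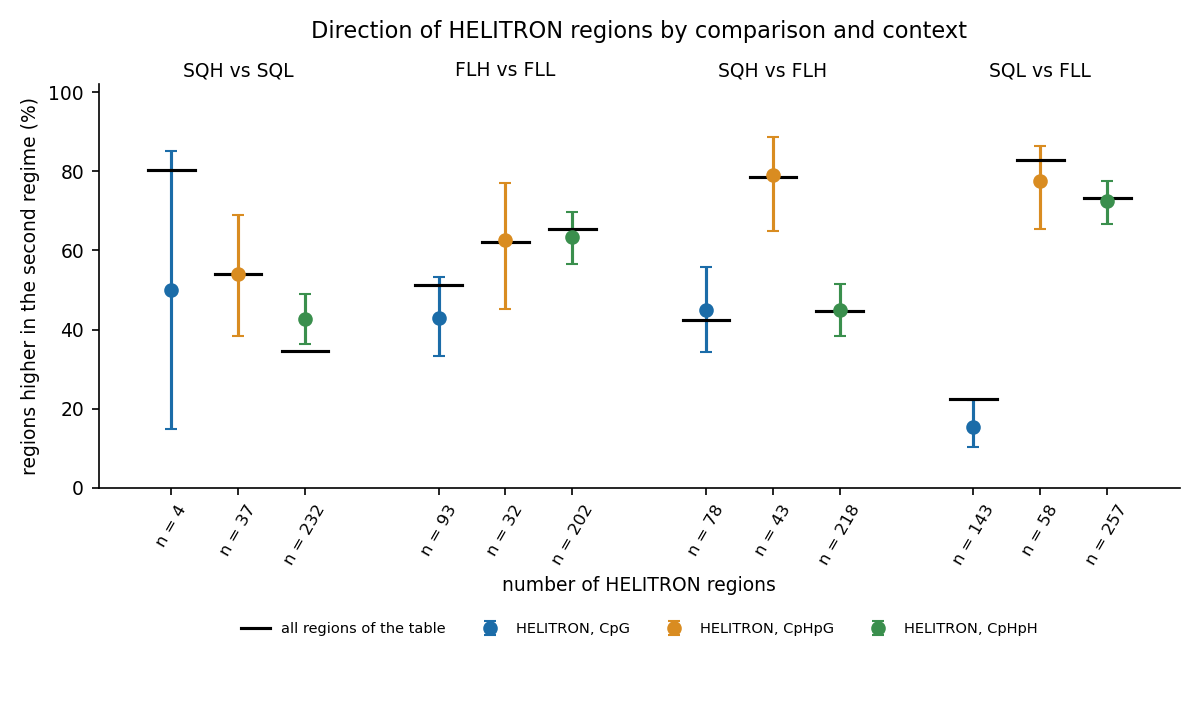
Share of HELITRON regions that had a higher level in the second regime, by comparison and context, in percent with Wilson 95% intervals; black lines give the same share over all regions of the table. CpHpH stands at 42.7, 63.4, 45.0 and 72.4% in the 4 comparisons from left to right.

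The pattern of light was compared at each intensity. At low light, CpHpH regions were mostly higher in the fluctuating library. For SQL against FLL, 186 of 257 (72.4%, 66.6 to 77.5) were gains, beside 73.3% of all CpHpH regions, and the pooled level went from 19.2 to 26.8%. At high light no such lean was seen. For SQH against FLH, 98 of 218 (45.0%, 38.5 to 51.6) were gains, beside 44.7% of all, and the pooled levels were 21.2 and 20.6%. The difference between the effects at the 2 intensities, or under the 2 patterns, was not tested, because each regime is 1 library.

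The CpHpG regions were mostly higher under fluctuating light at both intensities. For SQH against FLH, 34 of 43 (79.1%, 64.8 to 88.6) were gains, beside 78.6% of all CpHpG regions, with pooled levels of 31.0 and 47.8%. For SQL against FLL, 45 of 58 (77.6%, 65.3 to 86.4) were gains, beside 82.8% of all, with 31.1 and 44.7%. The comparisons of intensity were more even. They gave 20 gains of 37 (54.1%, 38.4 to 69.0, beside 54.1% of all) for SQH against SQL, with levels of 31.9 and 34.4%. For FLH against FLL they gave 20 of 32 (62.5%, 45.3 to 77.1, beside 62.2% of all), with 33.4 and 39.5%.

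CpG regions showed the strongest lean of the 12 sets, towards loss in FLL relative to SQL. Only 22 of 143 (15.4%, 10.4 to 22.2) were gains, beside 22.4% of all CpG regions of that table, and the pooled level was 72.2% in SQL and 52.1% in FLL. The 121 losses went from 76.6 to 50.3% and the 22 gains from 34.7 to 66.1%. In FLH against FLL, 40 of 93 (43.0%, 33.4 to 53.2) were gains, beside 51.3% of all, and the level was 68.0% in FLH and 59.9% in FLL, a difference of -8.11 points that was -3.90 as a mean over regions. In SQH against FLH, 35 of 78 (44.9%, 34.3 to 55.9) were gains, beside 42.4% of all, and the level was 66.4% in both, with a mean over regions of 66.9% in SQH and 63.9% in FLH. The 4 CpG regions of SQH against SQL were 2 gains and 2 losses (50%, 15.0 to 85.0), beside 80.3% of all.

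Those 4 CpG regions all had large differences, which the smallest CpG difference of that table, 40.2 points, largely sets. AT3TE51490 had 2 of 37 reads methylated in SQH and 20 of 40 in SQL, or 5.41 and 50%. AT4TE25265 (HELITRONY1D) had 52.9% in SQH and 97.3% in SQL, but its SQH value rested on 17 reads over 4 cytosines. The other 2 were losses. AT4TE24425 had 88.2% in SQH (30 of 34 reads) and 39.1% in SQL (9 of 23 reads, over 4 cytosines), and AT4TE21460 (HELITRON4) had 81.0 and 39.0%.

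**Figure D3:**
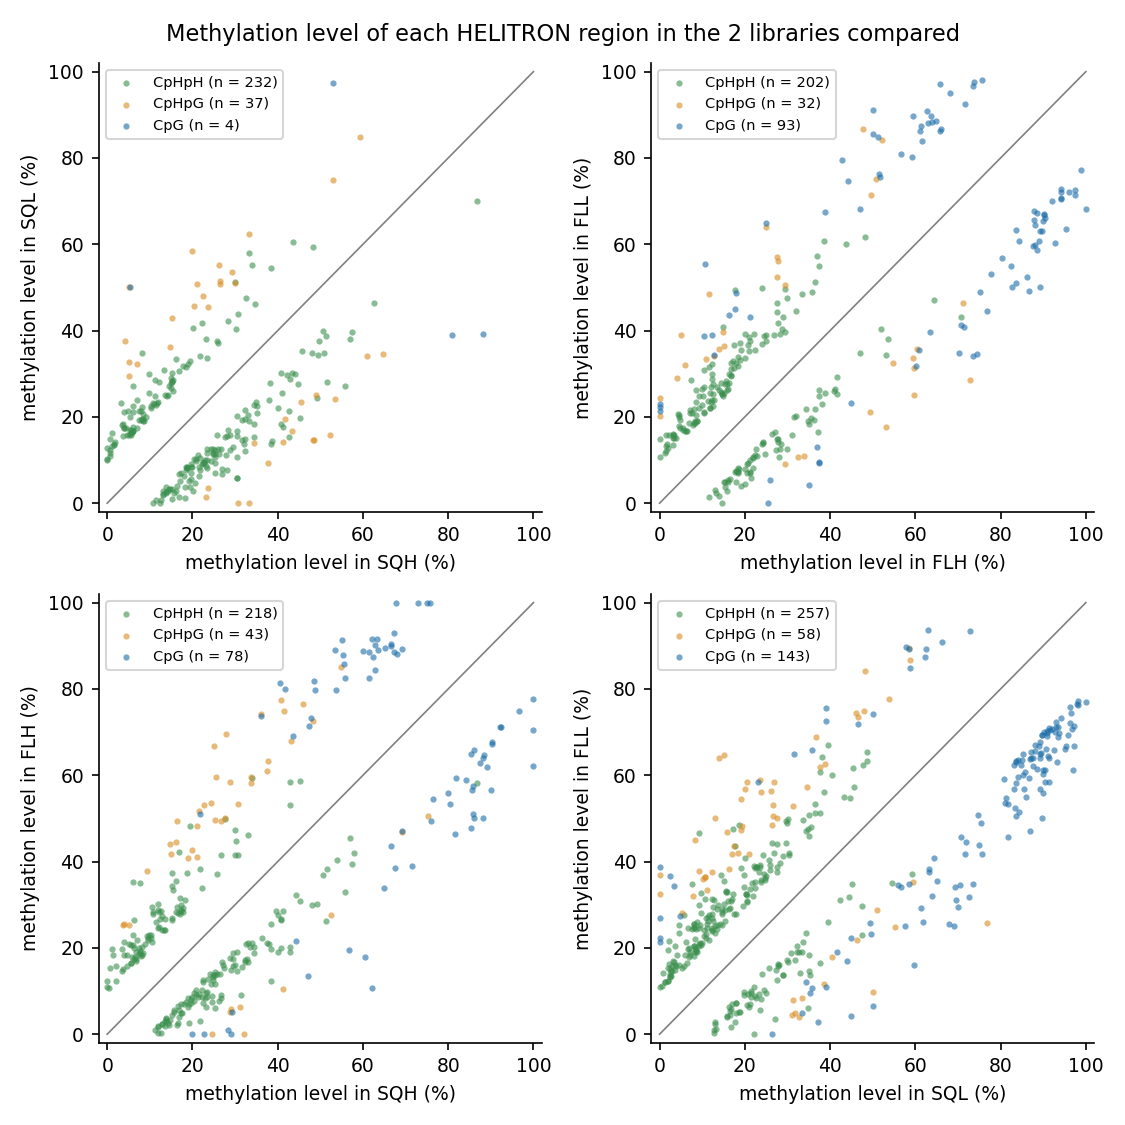
Methylation level of each HELITRON region in the 2 libraries compared, in percent, 1 panel per comparison with the first library on the x axis and the second on the y axis, coloured by context. Points above the diagonal are gains; the empty band around the diagonal reflects the smallest differences the tables hold, 20 points in CpG and CpHpG and 10 points in CpHpH.

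Sizes of single differences stayed close to these minimum values in every comparison. The median absolute difference of CpHpH regions was 13.1, 12.9, 12.7 and 13.3 points in the order of the tables, and the largest was 37.3 points, between SQL and FLL. For CpHpG the medians were between 24.9 and 26.9 points. For CpG they were 25.5 to 26.7 points in 3 tables and 44.5 points in SQH against SQL.

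By family, CpHpH gains outnumbered losses for SQL against FLL in both kinds of family, with 14 of 20 in HELITRON1 to HELITRON5 (23.5 to 27.6%) and 172 of 237 in the HELITRONY families (18.8 to 26.8%), near the 73.3% of gains among all CpHpH regions. HELITRONY3 had 109 gains of 151 for SQL against FLL (19.6 to 27.8%), 55 of 135 for SQH against SQL (24.1 to 20.2%), 68 of 112 for FLH against FLL (20.3 to 24.0%) and 56 of 122 for SQH against FLH (22.0 to 21.4%). HELITRONY1D had larger differences, with 29 of 35 (19.5 to 28.3%), 8 of 27 (25.1 to 19.3%), 23 of 32 (20.9 to 28.0%) and 9 of 28 (21.8 to 19.1%) in the same order. The last difference was -2.72 points pooled and -5.30 as a mean over regions. HELITRONY1E had 10 gains of 13 for SQL against FLL, from 14.2 to 26.2%. For SQH against SQL, HELITRONY2 had 6 gains of 8 (21.7 to 25.8%, and 18.4 to 25.5% as a mean over regions), HELITRON4 had 3 of 4 and HELITRON2 had 4 of 7. HELITRON1 to HELITRON5 together had 9 of 15 (19.7 to 21.1%), beside 90 of 217 in the HELITRONY families (23.4 to 19.9%), and this difference was not tested. For SQL against FLL, HELITRONY1A and HELITRONY1B had smaller differences, with 7 gains of 13 (19.6 to 20.3%) and 9 of 14 (20.6 to 24.0%), and HELITRONY2 had 2 of 4.

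**Figure D4:**
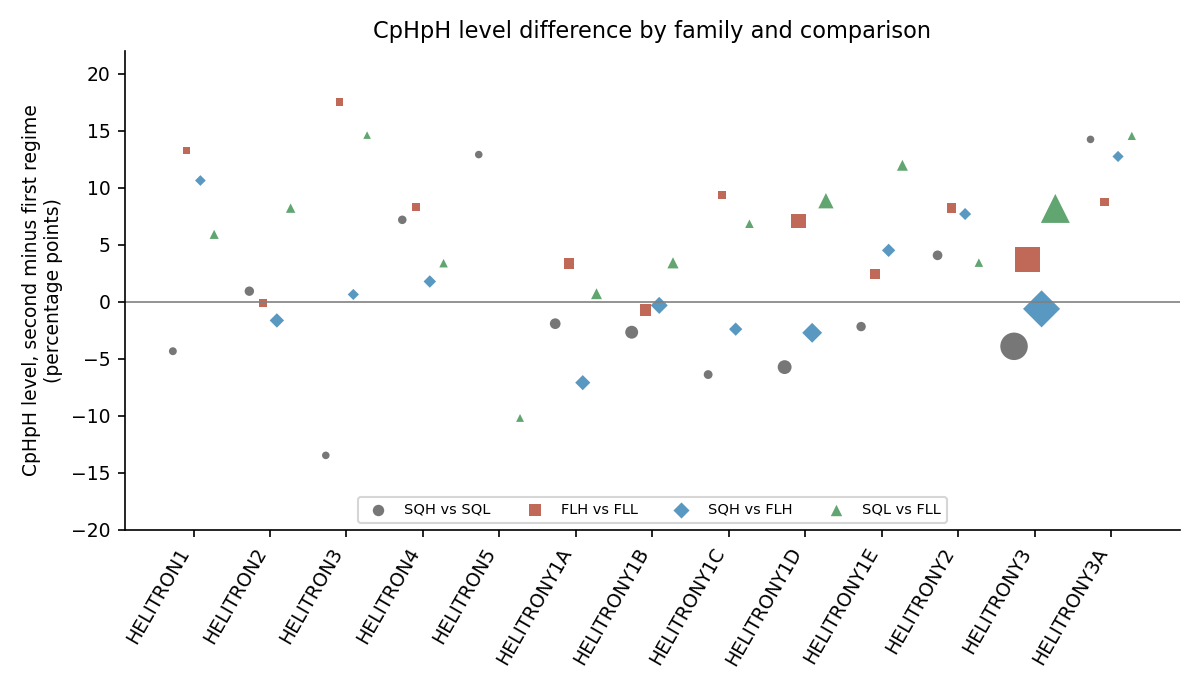
Difference in pooled CpHpH level, second minus first regime in percentage points, for each family and comparison that had CpHpH regions; the area of a symbol grows with the number of regions. HELITRONY1D runs from -5.73 for SQH against SQL to 8.86 for SQL against FLL.

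The CpG level was lower in FLL than in SQL in every family with at least 8 CpG regions in that table. The same held over all CpG regions of the table, with 22.4% gains and pooled levels of 66.3% in SQL and 51.4% in FLL, so it is not particular to these families. Gains were 0 of 13 in HELITRON1 (77.3 to 47.7%), 1 of 12 in HELITRON2 (76.4 to 56.1%), 3 of 16 in HELITRON4 (76.4 to 61.1%), 1 of 12 in HELITRONY1D (69.7 to 48.4%), 2 of 11 in HELITRONY1E (70.5 to 48.8%), 1 of 12 in HELITRONY2 (67.9 to 49.2%) and 6 of 36 in HELITRONY3 (69.5 to 51.2%). For FLH against FLL, gains made up 51.3% of all CpG regions. There HELITRON1 to HELITRON5 had 11 gains of 37, with a pooled CpG level of 81.2% in FLH and 61.7% in FLL. The HELITRONY families had 29 of 56, with 57.1 and 58.5%. The size of the difference in HELITRON1 to HELITRON5 rests on the weighting, since the mean over regions was 76.0% in FLH and 66.6% in FLL. In HELITRON1 alone the mean was 71.4 and 66.7% beside 82.3 and 59.1% pooled. The difference between the kinds of family was not tested.

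For SQH against FLH, 30 of the 43 CpHpG regions (69.8%), and most of the gains, were of HELITRON1 to HELITRON5. Gains made up 78.6% of all CpHpG regions of that table. HELITRON1 had 8 gains of 8 for SQH against FLH, from 28.1 to 53.8%, and HELITRON2 had 9 of 10, from 33.3 to 49.9%. HELITRON1 to HELITRON5 together had 26 of 30 (31.6 to 51.6%), and the HELITRONY families had 8 of 13 (29.2 to 37.8%, and 29.9 to 35.5% as a mean over regions). For FLH against FLL the kinds differed in direction of the pooled level, with 7 gains of 17 in HELITRON1 to HELITRON5 (40.0 to 36.3%, and 40.7 to 34.4% as a mean over regions) and 13 of 15 in the HELITRONY families (25.6 to 43.6%), and again no test was made.

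Where both libraries had 8 or more reads per cytosine, the largest differences were the following. In FLH against FLL, AT2TE18975 (HELITRON4, CpG) had 25.0 and 64.9%, AT1TE93275 (HELITRON1, CpHpG, in a UTR of AT1G75945, an uncharacterized protein gene) had 72.7 and 28.6%, and AT1TE41830 (HELITRONY1D, CpHpH) had 24.0 and 49.8%. The last of these lies 716 bp from AT1G35140 (PHI-1), a phosphate-responsive family gene. In SQH against FLH, AT3TE41680 (HELITRONY1A, CpG) had 60.5 and 18.0%, AT2TE24680 (HELITRON2, CpHpG) had 25.0 and 66.7%, and AT3TE38835 (HELITRONY3A, CpHpH, 300 bp wide) had 16.8 and 42.1%. In SQL against FLL, AT2TE02330 (HELITRONY1E, CpG) had 69.1 and 25.0%, AT5TE35850 (HELITRONY3, CpHpG) had 20.5 and 58.5%, and AT1TE34295 (HELITRONY3, CpHpH) had 18.6 and 48.4%. AT1TE34295 lies 442 bp upstream of AT1G30140, which encodes a Myb/SANT-like DNA-binding domain protein. In SQH against SQL, the CpHpG region of AT2TE18840, in the pseudogene AT2G11320, had 52.4 and 15.8%. The CpHpH region of AT4TE34075, 420 bp upstream of AT4G13360, a Clp protease/crotonase family gene, had 6.04 and 27.2%.

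The certainty of such single differences depends on what is counted as an observation. A read that covers several cytosines is counted at each of them, so each library's mean depth over the cytosines served as the number of observations. This is a low count, since a read need not cover every cytosine of a region. A Newcombe 95% interval, which the low count makes wide, was computed for each difference. That interval excluded 0 for 3 of 273 HELITRON regions in SQH against SQL, beside 0.828% of all regions, for 2 of 327 in FLH against FLL (1.24% of all), for 2 of 339 in SQH against FLH (0.748% of all) and for 10 of 458 in SQL against FLL (1.99% of all). With all summed reads counted as observations, the interval excluded 0 for every one of them, which the calling of the DMRs on the same reads makes near certain. For AT3TE51490 the interval at mean depth was 3.91 to 71.4 points, for AT3TE41680 it was -68.2 to -3.15 and for AT2TE02330 it was -69.8 to -1.88. For the other 9 regions named for their largest difference the interval held 0.

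A level in all 4 libraries could be read for 60 regions that were listed with the same bounds and context in several tables, 54 of them CpHpH, 4 CpG and 2 CpHpG. Only regions called as different can be among them. Over the 54 CpHpH regions the median level was 25.4% in FLL, 20.5% in SQH, 20.4% in FLH and 17.5% in SQL. FLL was the highest library in 24 of the 54, SQH in 13, SQL in 9 and FLH in 8. SQL was the lowest in 17, SQH in 16, FLH in 12 and FLL in 9. The same counts over all regions with 4 levels are not given here, so these are not read as particular to HELITRON regions. The range over the 4 libraries was 11.2 points at the least, 17.4 at the median and 31.5 at the most. Median depth in these regions was also highest in FLL, with 9.16 reads per cytosine beside 7.31 in SQH, 8.13 in SQL and 8.83 in FLH.

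The regions with the widest ranges, whose sequences are printed above, were CpG and CpHpH. In AT4TE24425 the CpG level was 88.2% (34 reads) in SQH and 39.1% (23 reads) in SQL, 50% (40 reads) in FLH and 75.6% (45 reads) in FLL. In AT3TE36645, 413 bp upstream of the protein kinase superfamily gene AT3G24190, it was 29.0, 43.9, 0 and 16.9%. SQH and FLL were thus the high libraries in the former, and both square libraries were above both fluctuating ones in the latter.

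The CpHpH region of AT3TE41565 had 42.2% in SQH and 29.7% in SQL, 17.8% in FLH and 49.3% in FLL. It lies 461 bp upstream of AT3G27090, a gene of the DCD (Development and Cell Death) domain family. AT5TE73965 had 57.4, 39.6, 39.5 and 67.0% in the same order. In both, SQH and FLL were above SQL and FLH. AT5TE32720 differed, with 13.5 and 7.69% in the square libraries and 26.6 and 34.7% in the fluctuating ones.

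By the 2 libraries with the higher levels, SQH and FLL were above SQL and FLH in 25 of the 60 regions, beside 272 of 837 among all regions with 4 levels. The fluctuating libraries were above the square ones in 12 (180 of 837), SQL and FLH above SQH and FLL in 11 (130 of 837), and low light above high light in 6 (84 of 837). The square libraries were above the fluctuating ones in 3 (103 of 837) and high above low light in 3 (68 of 837). How a region came to be listed bears on these counts. A region listed in all 4 tables had to differ between each regime and both of its neighbours in the design, so the crossed orders are partly set by the listing. The 12 HELITRON regions listed there had 9 with SQH and FLL above and 3 with SQL and FLH above, beside 54 and 23 of 84 among all regions. In the 24 listed in 3 tables, SQH and FLL were above in 14, beside 188 of 342 among all (55.0%). In the 24 regions whose 4 levels came from 2 tables, the fluctuating libraries were higher in 11, beside 152 of 411 among all regions (37.0%), and low light was higher in 6, beside 69 of 411 (16.8%).

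**Figure D5:**
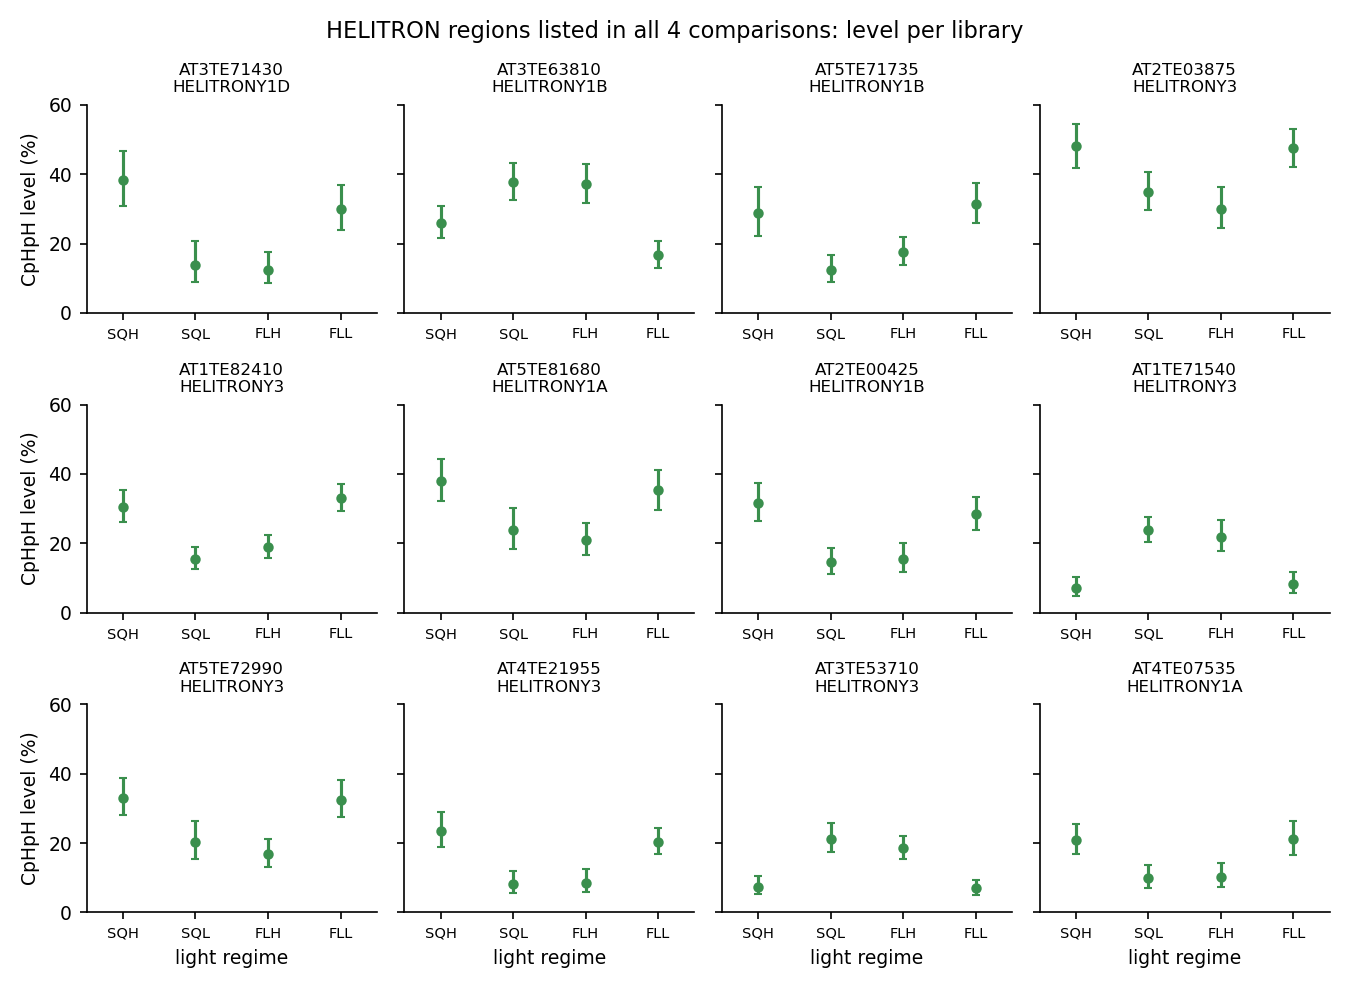
Level in each of the 4 libraries, in percent, for the 12 HELITRON regions listed in all 4 comparisons, all of them CpHpH; bars around the points are Wilson 95% intervals that count all summed reads as observations and cover counting error only. In 9 panels SQH and FLL are the 2 high libraries, and in 3 panels they are the 2 low ones.

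Several regions lie in or near genes. The gene column of the tables named a gene for 271 of the 1397 entries (19.4%), with 146 loci in all, and 4 of these were named in all 4 tables. AT3G47800, a galactose mutarotase-like gene, carries the CpHpH region of AT3TE71430 (HELITRONY1D) in an intron, with 38.4 and 13.7% in SQH and SQL and 12.3 and 29.9% in FLH and FLL. AT1G23670, an OBP32pep (DUF220) gene, carries AT1TE27030 (HELITRONY3) in an intron, and one of its CpHpH regions had 16.2, 33.5, 28.3 and 19.1% in the same order. SQH and FLL were thus the 2 high libraries at the AT3G47800 region, and SQL and FLH at the AT1G23670 region. In the latter region 37.6% of the 50-base stretches were unique in the genome. The other loci were pseudogenes. In AT3G42400, with AT3TE59535 (HELITRON3), the CpG level of one bin was 59.6% in FLL beside 84.1% in SQL and 87.5% in FLH, and the CpHpG level of the same bin was 24.4% in SQH and 53.6% in FLH. In AT1G54430, 5 CpHpH entries were listed, of which 4 were gains and 1 was a loss.

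Of the 54 CpHpH regions with 4 levels, 15 lay upstream of a protein-coding gene within 1 kb and 4 in introns. Some genes are named here for their known roles, chosen after the values were seen. Upstream of SOS2 (AT5G35410), the protein kinase of the salt overly sensitive pathway, the region of AT5TE48505 had 40.8 and 18.3% in SQH and SQL and 26.4 and 16.1% in FLH and FLL. Upstream of SWEET6 (AT1G66770), of the SWEET sugar transporter family, the region of AT1TE81825 had 12.7, 13.5, 28.5 and 28.9%. An intron of AT1G33950, an AIG1 family gene, held 2 regions of AT1TE40120, with 11.9, 16.1, 28.7 and 30.8% in one and 11.6, 10.8, 25.9 and 27.0% in the other. High light was thus above low light at the SOS2 region, and both fluctuating libraries were above both square ones at the SWEET6 and AT1G33950 regions. Expression of these genes was not analysed here.

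Some regions had no methylated read in one library. This held for 32 of the 1397 entries (2.29%, beside 1.69% of all), of which 12 were CpG, 8 CpHpG and 12 CpHpH. In CpHpG these were 4.71% of the HELITRON entries, beside 1.37% of all. The CpHpH region of AT2TE33545 (HELITRONY3A) had 0 of 424 reads in FLH, over 38 cytosines, and 14.8% in FLL. Its mean depth in FLH was 11.2 reads per cytosine. With that number of observations a count of 0 allows a level of up to 26.9%, above the level in FLL. Mean depth is a low count of observations, and with all 424 summed reads counted the limit was 0.71%. The CpG region of AT3TE36645 had 0 of 51 reads in FLH, which at a mean depth of 8.5 allows up to 35.3%, above the level in SQH and below that in SQL. That of AT3TE43235 (HELITRONY3) had 0 of 39 in SQL, which at a mean depth of 9.75 allows up to 30.8%, and 38.6% in FLL.

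Single transposons were often listed more than once. Of the 641 loci, 321 were in 1 table, 175 in 2, 97 in 3 and 48 in 4. Exact regions recurred less, with 819 of 1084 (75.6%, beside 79.1% of all) in 1 table, 229 in 2, 24 in 3 and 12 in 4. Loci with several CpHpH regions in one table held both gains and losses in 16 of 27, 8 of 13, 11 of 19 and 16 of 34 cases in the order of the tables. These shares, 59.3, 61.5, 57.9 and 47.1%, were near the 53.9, 60.8, 62.4 and 45.1% of all TE loci. The caller joins adjoining regions of 1 direction, so mixed directions among the separate regions of a locus are partly set by the calling. For CpG in SQL against FLL, 10 of 13 such loci went 1 way, beside 118 of 173 of all TE loci (68.2%). The CpG counts were 4 of 6 for FLH against FLL, beside 41 of 99 of all TE loci (41.4%), and 4 of 7 for SQH against FLH, beside 41 of 101 (40.6%).

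The locus with most entries in each family gives examples. AT2TE08320 (HELITRON4) had 11 entries over 12150 bp, 7 of them gains. AT2TE25020 (HELITRON1) had 10 over 13200 bp. The CpG level of one of its bins was 62.1% in SQH (18 of 29 reads), 10.7% in FLH (3 of 28) and 55.4% in FLL (31 of 56). That bin holds 4 CpG cytosines, so its depth in SQH and FLH was below 8 reads per cytosine. AT3TE59535 (HELITRON3) had 9 entries, AT2TE24680 (HELITRON2) had 8 and AT3TE58655 (HELITRON5) had 7. The regions of these 5 loci spanned 9900 to 13950 bp.

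AT4TE23520 (HELITRONY3) had 10 entries over 1950 bp, and 4 adjoining CpHpH bins of it alternated between SQL and FLL. They went from 35.0 to 50.7%, from 29.1 to 13.7%, from 20.4 to 32.2% and from 22.3 to 8.87%. Adjoining regions of 1 direction are joined by the caller, so the 21 abutting pairs of HELITRON regions, all of opposite direction, were nearly bound to be so. Of pairs more than 200 and up to 1000 bp apart, 50 of 90 (55.6%) had the same direction, beside 59.4% of all. A CpG bin of AT4TE23520, 86 bp upstream of the nitrilase family gene AT4G08790, had 20.0 and 22.2% in SQH and FLL and 0 in SQL and FLH. At the mean depths these counts of 0 allow up to 29.5% in SQL and 32.7% in FLH, above the levels in SQH and FLL. With all summed reads counted the limits were 4.92 and 5.45%.

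Among the other families, AT4TE11940 (HELITRONY1B) had 7 entries. Its CpHpH level in one bin of 32 cytosines was 0.59% in SQH (1 of 169 reads), 10.9% in SQL (30 of 275) and 15.5% in FLH (51 of 330). AT1TE87630 (HELITRONY1D) and AT5TE32720 (HELITRONY1E) had 6 entries each, and one bin of AT5TE32720 had a CpHpG level of 84.2% in FLL beside 48.2% in SQL and 52.1% in FLH. AT2TE16270 (HELITRONY2) had 5 entries, all gains. AT4TE07535 (HELITRONY1A) had 4, AT2TE11410 (HELITRONY1C) had 3 and AT3TE38835 (HELITRONY3A) had 2.

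Few bins were listed in more than 1 context, in the HELITRON regions as in the whole tables. They were 3 of 270, 2 of 325, 2 of 337 and 13 of 445 bins in the order of the tables, beside 46 of 3454, 114 of 6149, 142 of 6407 and 194 of 8282 of all bins. CpHpG and CpHpH had the same direction in 3 of 3, 1 of 1, 1 of 1 and 8 of 8 such bins, beside 41 of 41, 53 of 53, 90 of 91 and 117 of 118 of all. For SQL against FLL, all 4 bins listed in CpG and CpHpH also had 1 direction in both, beside 44 of 49 of all, and the 1 bin listed in CpG and CpHpG had opposite directions, beside 32 of 33 of all with 1 direction.

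The comparisons of pattern share no library, nor do those of intensity. In CpHpH, 34 HELITRON regions were listed in both comparisons of pattern. Of these, 11 were gains in both, 2 were losses in both, 16 were a loss at high light and a gain at low light and 5 the reverse, beside 145, 69, 161 and 47 of 422 among all regions. In both comparisons of intensity 32 were listed, with 6 gains in both, 3 losses in both, 15 that were a loss under the square and a gain under the fluctuating pattern and 8 the reverse, beside 80, 66, 122 and 54 of 322.

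Repeated sequence bears on how well reads can be placed. Every 50-base stretch was unique in the genome for 647 of the 1084 regions (59.7%), and fewer than 50% of the stretches were unique for 61 (5.63%). In HELITRONY3 48.6% of the regions were fully unique, and in the region of AT1TE34295 30.7% of the stretches were. The CpHpH shares of gains in fully unique and in other regions were 38.7 and 46.9% for SQH against SQL, 60.7 and 66.7% for FLH against FLL, 40.9 and 49.5% for SQH against FLH and 73.1 and 71.5% for SQL against FLL. Each pair lay on the same side of an even split.

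The ATREP Helitrons, set beside the HELITRON regions, had CpHpH gain shares in the same order of comparisons. ATREP3 had 36.6, 67.6, 40.1 and 69.1%, the ATREP10 families had 39.7, 62.2, 44.1 and 69.8%, and the remaining ATREP families had 32.0, 69.9, 41.1 and 72.8%. HELITRON regions had 42.7, 63.4, 45.0 and 72.4%, and all 4 sets had fewer gains than losses in both comparisons that start from SQH and more gains than losses in both that end with FLL.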

How the data were processed

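Whole-genome bisulfite sequencing of 4 pooled leaf libraries was processed by the authors. The submitters' processing notes name Trimmomatic 0.39, Bismark, Bowtie2 and the TAIR10 build. DMRcaller compared library pairs in 150 bp bins with at least 4 cytosines and 4 reads per cytosine. The deposited tables hold, per region, counts of methylated reads and of all reads in both libraries, and other columns (coordinates, context, transposon and gene names). The authors' columns of p-values, direction, region type and difference were not used. From the counts, levels, Wilson and Newcombe 95% intervals and positions were computed with Python 3.11.15, numpy 2.4.6, pandas 2.3.3 and matplotlib 3.10.9. The intervals were tested on simulated data, cover counting error only, and ignore that neighbouring cytosines share fragments. Where a region had 0 methylated reads, the limit was 3 reads of the mean depth per cytosine, or of all summed reads where so stated. Of 1487 lines, repeats of 77 regions were counted once. In 28 entries (23 regions) another table gave another family name.

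The members, lists and rules were chosen with earlier results of these data known. Regions were named by rule: the largest difference per comparison and context with at least 8 reads per cytosine, the 6 widest ranges over 4 libraries, the locus with most entries per family, and gene loci named in all 4 tables. Exceptions are stated, and 1 of the 6 regions with the widest ranges is not reported here. Alternatives were a minimum of 8 reads per cytosine, a common CpG minimum of 40 points, all lines, 1 region per locus, no HELITRONY3, region means, and another gene-poor limit.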

Additional observations from a re-analysis of the deposited data

Results flagged for a closer look

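The pooled CpHpH level over HELITRON regions differed in opposite directions under the 2 patterns: low minus high light was -3.17 points for square light (SQH against SQL) and 4.28 points for fluctuating light (FLH against FLL). It also differed by intensity, since fluctuating minus square light was -0.60 points at high light (SQH against FLH) and 7.66 points at low light (SQL against FLL). These 4 values come from 4 libraries with 1 per regime and each library enters 2 of them, so they are not independent, and the difference between the effects was not tested. The first value was -2.0 without HELITRONY3, and the third was -1.21 as a mean over regions. Among all CpHpH regions of the tables the same 4 values were -4.54, 4.49, -1.19 and 7.34 points.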

How the results depend on the processing

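No paired analysis was possible because each regime is 1 library with no replicate number. Where both libraries had 8 or more reads per cytosine, 75, 185, 117 and 218 HELITRON regions remained of 273, 327, 339 and 458 in SQH against SQL, FLH against FLL, SQH against FLH and SQL against FLL. Without HELITRONY3 the counts were 128, 188, 194 and 256. At 8 reads the CpHpH share of gains for SQL against FLL was 81.8% (88 regions), and the CpG share for SQH against SQL was 100% on 1 region. With a common CpG minimum of 40 points the CpG shares were 100% for FLH against FLL (2 regions), 33.3% for SQH against FLH (3) and 0% for SQL against FLL (7). The pooled CpG difference of SQH against SQL, -4.02 points, changed sign to 44.6 at 8 reads and to 8.97 without HELITRONY3, and that of SQH against FLH, -0.07, to 1.0 without HELITRONY3. Fewer regions enter each of these settings. Means over regions in place of pooled reads gave CpG differences of -3.90 (pooled -8.11) for FLH against FLL, -2.97 (-0.07) for SQH against FLH and -18.6 (-20.1) for SQL against FLL. They gave CpHpH differences of -2.52 (-3.17), -1.21 (-0.60) and 6.62 (7.66) for SQH against SQL, SQH against FLH and SQL against FLL, and a CpHpG difference of 16.1 (13.6) for SQL against FLL. At 8 reads the CpG difference for SQH against FLH was -3.43. Without HELITRONY3, the CpHpH difference of SQH against SQL was -2.0, the CpHpG differences were 5.12 (2.49) for SQH against SQL and 3.22 (6.13) for FLH against FLL, and the CpG difference of FLH against FLL was -12.1. The number of regions whose interval excluded 0 was 3, 2, 2 and 10 at mean depth and 273, 327, 339 and 458 with summed reads. With a limit of 0.25 times the median gene number, 16.1% of the HELITRON regions and 21.7% of all regions were in gene-poor windows. Counting every line or 1 region per locus moved no count past 1.5 times and no share past its interval.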
